A study of Mus musculus with 6 samples.

Results

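Mitochondrial ribosomal protein genes encode the proteins of the ribosome that works inside mitochondria. They were taken from the deposited raw count table as every row whose symbol begins with Mrps or Mrpl followed by a digit, which gave 78 of 15861 genes: 29 with a small subunit symbol (Mrps) and 49 with a large subunit symbol (Mrpl). The rule used only symbols and no measured value. All 78 had enough counts to be tested.

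The mitochondrial ribosome translates the few proteins that mitochondrial DNA encodes, all of them subunits of the respiratory chain and of ATP synthase. Its ribosomal RNAs are transcribed inside the organelle, whereas all of its proteins are encoded in the nucleus, made in the cytosol and imported. Many of them descend from the proteins of bacterial ribosomes, and others have no bacterial counterpart and were added in the lineage of mitochondria. Germinal centre B cells are B cells that divide rapidly and select antibody variants within lymphoid follicles.

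The libraries were made from polyadenylated RNA of sorted germinal centre B cells (positive for B220, GL7 and FAS), with 3 littermate mice of each genotype. The wild-type group (WT 1 to WT 3) was C57BL/6:Lsd1 f/f, and the knockout group (KO 1 to KO 3) was C57BL/6:Cgamma-cre+/-; Lsd1 f/f. Both groups thus carry the floxed Lsd1 allele, and only the KO group carries the Cre transgene, so an effect of Cre itself and an effect of the deletion cannot be told apart. Lsd1, listed under the symbol Kdm1a, encodes a histone demethylase that acts on lysine 4 of histone H3. Sources used here do not give the age or sex of the mice or any immunisation. In bulk RNA of this kind, fewer cells of a type and less RNA per cell cannot be told apart.

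The libraries differed in depth, and Kdm1a was not equally low in the 3 KO libraries. Total counts were 3786455, 5524852 and 3390805 in WT 1 to WT 3 and 12325300, 14327654 and 13127510 in KO 1 to KO 3, so the shallowest KO library was more than 2-fold deeper than the deepest WT library. Kdm1a was read at 134, 85.2 and 92.6 CPM (counts scaled to a common library size) in WT and at 81.9, 33.0 and 21.8 CPM in KO. CPM are scaled by edgeR's TMM factors here and below, except that sums over markers are scaled by library size alone. The library labelled KO 1 therefore lay just under the lowest WT library, with a log2 CPM of -0.32 against the WT mean. The fitted log2 difference of all 3 KO against all 3 WT libraries was -1.19 (SE 0.50, edgeR adjusted p = 0.393). The Kdm1a count covers the whole gene, and reads from outside the deleted part enter it. The sum over 15 germinal centre B cell markers was 9738 to 13457 CPM (WT) and 8832 to 10861 CPM (KO). For the 20 markers of macrophages and dendritic cells the sum was 872, 2539 and 4467 CPM in the WT libraries, and 716, 828 and 5733 CPM in the KO libraries, with at most 1 of the 20 at 0 in any library. T and NK cell markers were at 181 to 252 CPM (WT) and 158 to 216 CPM (KO), plasma cell markers at 1770 to 2739 and 2344 to 2963 CPM, follicular B cell markers at 452 to 602 and 535 to 982 CPM, and granulocyte, erythroid and stromal markers at 152 to 378 and 313 to 441 CPM. The T and NK sum was mostly Lck, at 187 to 255 CPM (WT) and 139 to 185 CPM (KO). Cd3d and Cd3g were at 1.14 CPM or less in every library. Of the 14 granulocyte, erythroid and stromal markers, 8 were in the table. Their sum was mostly Cr2 (109 to 333 CPM in WT, 205 to 310 CPM in KO) and Pecam1 (41.0 to 67.6 and 85.7 to 96.3 CPM).

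The promoter sequences of these genes were searched for short motifs, and none was found in all of them. RefSeq windows on GRCm38.p6, from 250 bases before to 50 bases after the annotated start, were matched by symbol for 69 of the 78 genes, giving 75 windows. Each was searched on both strands for short cores of the motifs of factors known from promoters of nuclear genes for mitochondrial proteins. The core of the YY1 motif, AAGATGGC, was present in 16% of the members' windows, against 4.86% of the 10979 windows of tested genes and 2.75% of all 32851 windows. Of the 12 matches in 12 genes, 8 lay on the strand of the gene, and all 8 began between 12 and 37 bases after the start. The other 4 lay on the opposite strand, upstream. Stretches of 30 bases around 11 of the matches are printed because the ratio of the members' share to that of tested genes was highest for this motif; they were picked after the matches were seen. Each reads 5′ to 3′ along the strand of the match, with the motif in capitals.

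Mrpl32 (chr13:14613258-14613287, plus strand): cgactttccgggtaAAGATGGCagagcgcg
Mrpl35 (chr6:71823743-71823772, minus strand): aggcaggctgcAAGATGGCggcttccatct
Mrpl36 (chr13:73330968-73330997, minus strand): cgccaggaagaAAGATGGCgtaaggtcacg
Mrpl37 (chr4:107066822-107066851, minus strand): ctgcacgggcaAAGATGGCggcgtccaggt
Mrpl42 (chr10:95501904-95501933, minus strand): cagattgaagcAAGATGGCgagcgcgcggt
Mrpl49 (chr19:6057721-6057750, minus strand): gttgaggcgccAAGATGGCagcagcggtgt
Mrps11 (chr7:78783013-78783042, minus strand): gggaagacagaAAGATGGCggcgcccgtag
Mrps18a (chr17:46111004-46111033, plus strand): aggtgcgttccAAGATGGCggccctcaggg
Mrps24 (chr11:5707652-5707681, minus strand): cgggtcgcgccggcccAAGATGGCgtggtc
Mrps27 (chr13:99344789-99344818, plus strand): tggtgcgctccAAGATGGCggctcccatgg
Mrps7 (chr11:115604147-115604176, plus strand): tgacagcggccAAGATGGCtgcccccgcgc

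The median log2 difference between KO and WT of the 12 genes with a match was -0.38, beside -0.31 for the 57 matched members without the motif. The ETS core CCGGAAG, which GABPA binds, was present in 34.7% of the members' windows and in 19.1% of those of tested genes, with a median log2 difference of -0.35 in the 26 members that have it and -0.31 in those that do not. The NRF1 core GCATGCGC was present in 10.7% and 5.61%, and the members with it had a median of -0.26. The CCAAT box (40.0% and 38.4%), the E-box CACGTG (9.33% and 10.3%), the SP1 core GGGCGG (52.0% and 63.1%) and TATAAA (6.67% and 6.79%) were about as frequent or less frequent in the members. The members' windows had a median GC content of 58.7%, and those of tested genes 60.7%. A match describes letters in a window and is no evidence that a factor binds there.

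The 250 bases upstream of the start are shown for the member with the smallest unadjusted p in each subunit, Mrps21 and Mrpl14, and for Mrpl12, which forms the stalk of the ribosome. Capitals mark any of the 7 motifs.

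Mrps21 (chr3:95871515-95871764, minus strand): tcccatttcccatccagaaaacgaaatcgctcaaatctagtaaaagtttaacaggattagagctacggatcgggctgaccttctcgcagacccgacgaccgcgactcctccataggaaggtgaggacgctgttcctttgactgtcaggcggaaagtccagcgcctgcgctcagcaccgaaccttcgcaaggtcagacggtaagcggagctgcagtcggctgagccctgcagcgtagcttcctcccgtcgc
Mrpl14 (chr17:45686099-45686348, plus strand): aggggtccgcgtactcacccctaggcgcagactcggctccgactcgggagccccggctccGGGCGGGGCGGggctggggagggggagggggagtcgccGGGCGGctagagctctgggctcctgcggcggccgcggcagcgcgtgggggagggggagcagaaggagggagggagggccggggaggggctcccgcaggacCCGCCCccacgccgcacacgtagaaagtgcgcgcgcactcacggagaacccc
Mrpl12 (chr11:120484387-120484636, plus strand): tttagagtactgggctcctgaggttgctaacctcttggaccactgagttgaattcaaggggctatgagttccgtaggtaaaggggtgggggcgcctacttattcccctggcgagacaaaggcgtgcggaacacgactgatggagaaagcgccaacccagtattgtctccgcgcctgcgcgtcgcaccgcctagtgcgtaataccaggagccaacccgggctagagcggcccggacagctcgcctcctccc

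The promoters of Mrps21 and Mrpl12 hold none of the 7 motifs in these stretches, and that of Mrpl14 holds 4 matches to the SP1 core in GC-rich sequence (77.2% GC). In all 3 genes every KO library lay below every WT library, and no motif of the list was common to them.

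Mitochondrial ribosomal protein genes were, as a group, read at slightly lower levels in KO than in WT, but no single gene passed the test. The fitted log2 difference (KO against WT) was below 0 for 71 of 78 members (91.0%), compared with 48.7% of the 10926 genes tested. Its median was -0.31 over the members, beside 0.01 over all genes tested, and the range ran from -0.97 for Mrpl14 to 0.20 for Mrpl9. None of the 78 had an edgeR adjusted p under 0.05, the smallest being 0.219 for Mrpl14; DESeq2 and limma-voom also called none. Among all genes tested, 9 were called (0.0824%), of which 1 was lower (0.00915%) and 8 were higher in KO (0.0732%). At an unadjusted p under 0.05, 21 members were lower (26.9%, against 5.5% of all genes) and none was higher (7.1% of all genes). For 19 members (24.4%), all 3 KO libraries lay below all 3 WT libraries, against 7.95% of all genes. For no member did all 3 KO libraries lie above, against 10% of all genes. Without the library labelled KO 1, the other KO libraries lay below all 3 WT libraries for 20 members (25.6%), against 10.8% of all genes. The count of 21 rests on which libraries are used: it was 4 without WT 3 (5.13%, against 1.48% of all genes), 8 without the library labelled KO 1 (10.3% against 2.86%) and 5 without KO 3 (6.41% against 4.52%). Scaling by library size alone moved the median of all genes to 0.13, left 62 of the 78 members below 0 and gave 10 members lower at an unadjusted p under 0.05 (12.8%, against 2.91% of all genes).

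Small and large subunit genes had similar summaries, and the difference between them was not tested. The small subunit had 26 of 29 members below 0 and a median of -0.30, with quartiles of -0.54 and -0.17. Of its genes, 7 were lower at an unadjusted p under 0.05 (24.1%, against 5.5% of all genes). For 9 all KO libraries lay below WT (31.0%, against 7.95% of all genes). The large subunit had 45 of 49 members below 0 and a median of -0.32, with quartiles of -0.50 and -0.15. There, 14 were lower at an unadjusted p under 0.05 (28.6%), and for 10 all KO libraries lay below WT (20.4%). The ratio of large to small subunit counts was 2.01, 2.19 and 2.14 in WT 1 to WT 3 and 2.10, 2.18 and 2.09 in KO 1 to KO 3 (mean 2.12 ± 0.09 and 2.12 ± 0.05, SD, n = 3 each). The ranges of this ratio overlapped. By the unified ribosomal protein names, the 46 members named as shared with bacteria had a median of -0.39 and the 31 named as mitochondrial a median of -0.29, with Mrps36 left unassigned. The corresponding medians within the small subunit were -0.42 and -0.28, and within the large subunit -0.38 and -0.31.

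**Figure D1:**
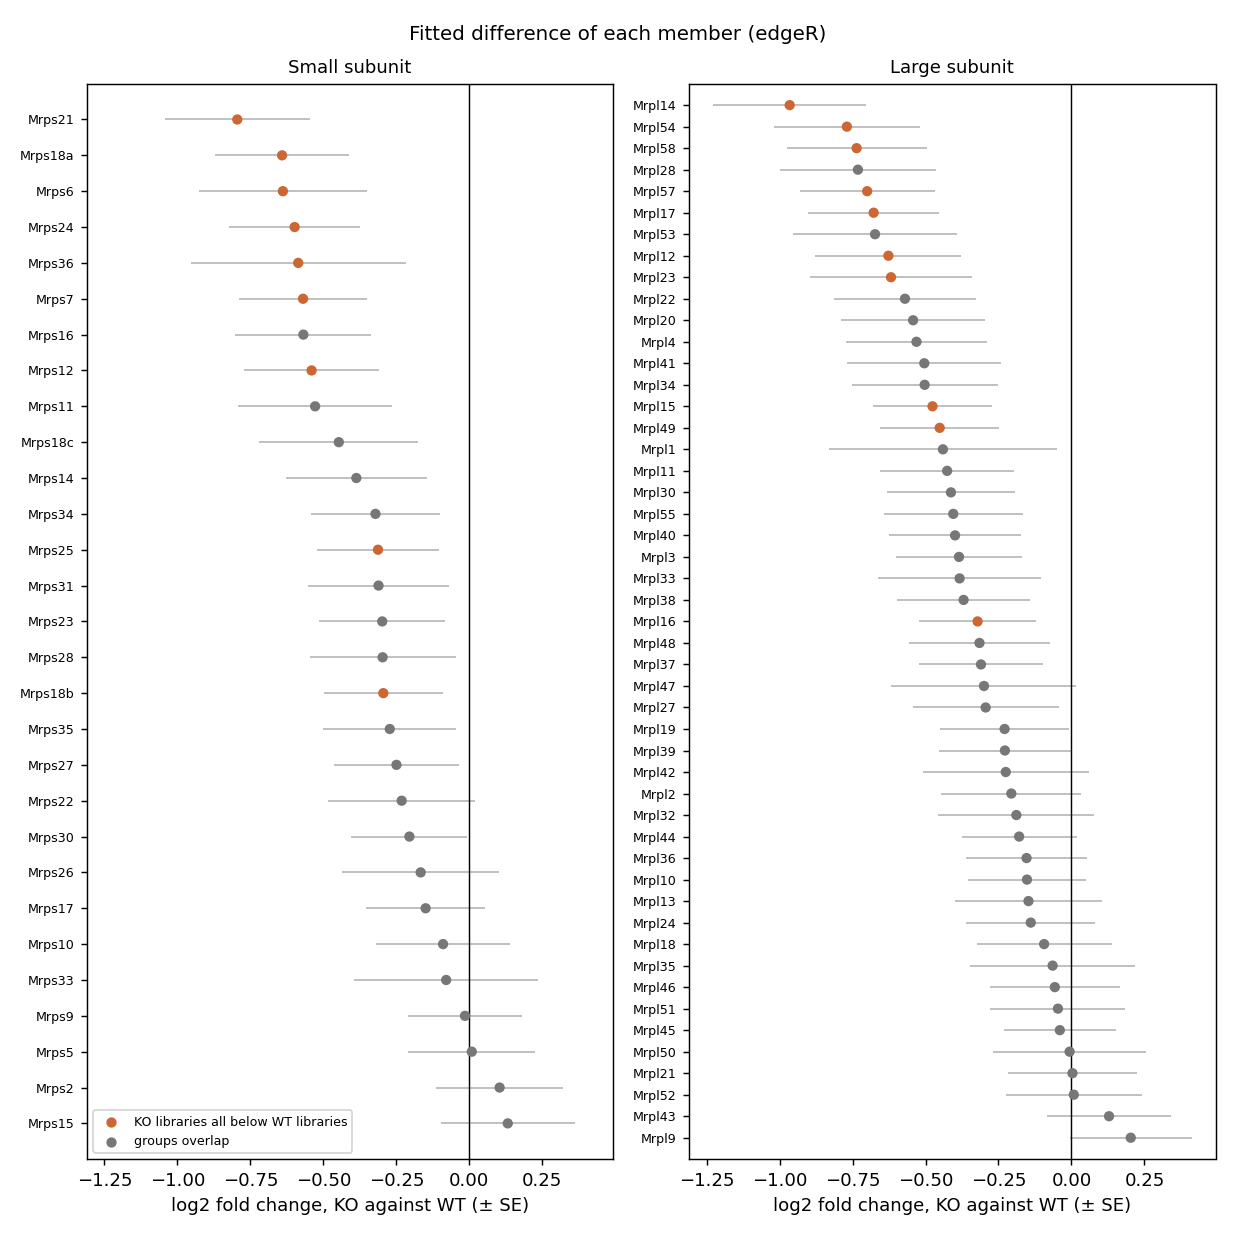
Fitted log2 difference of each of the 78 members (KO against WT, horizontal axis; points with bars of 1 SE), small subunit on the left and large subunit on the right, ordered by value. Orange marks the 19 members in which all KO libraries lay below all WT libraries, and 71 of the 78 points lie below 0.

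The KO libraries were not alike in these genes. Each member's log2 CPM was set against the mean of the 3 WT libraries. The median over the small subunit genes was then -0.07, -0.06 and 0.07 in WT 1 to WT 3 and -0.35, -0.08 and -0.52 in KO 1 to KO 3. Over the large subunit genes it was -0.15, 0.05 and 0.10 in WT and -0.42, -0.06 and -0.49 in KO. The median of KO 2 was within the WT range in the large subunit and just below it in the small one, whereas KO 3 and the library labelled KO 1 lay lower. Members below the WT mean numbered 45 in KO 2, 76 in KO 3 and 69 in the library labelled KO 1. KO 3 was the lowest of all 6 libraries for 53 members, the library labelled KO 1 for 12 and KO 2 for none. KO 2 was the highest KO library for 76 members and lay within the WT range for 46. KO 2 lay below all WT libraries for 20 members, against 64 for KO 3 and 49 for the library labelled KO 1.

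**Figure D2:**
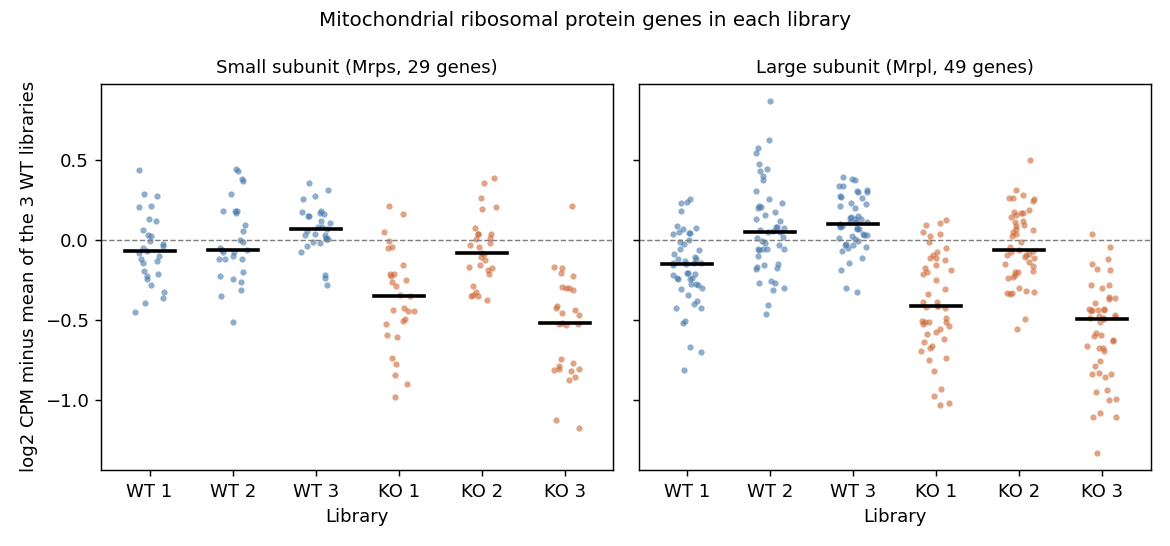
Each point is 1 gene in 1 library, and the vertical axis is its log2 CPM minus its mean in the 3 WT libraries; black bars are medians over the 29 small (left) and 49 large (right) subunit genes. The medians of KO 2 lie near 0 at -0.08 and -0.06, while those of KO 1 and KO 3 lie between -0.35 and -0.52.

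The order of the KO libraries in the members followed that in Kdm1a only in part, and a link between them was not tested. KO 3, with 21.8 CPM, was the lowest KO library in Kdm1a and in the medians of the members. KO 2, with 33.0 CPM of Kdm1a, had the highest member levels of the KO libraries, and the library labelled KO 1, with 81.9 CPM, had lower ones. The library with the highest macrophage and dendritic cell marker sum, KO 3 (5733 CPM), had the lowest member levels of the 6. WT 3, with the next highest sum (4467 CPM), was however the highest of the 6 libraries for 31 members. The part of these markers in the result was not tested. As a share of each library's counts, the 78 genes took 0.525%, 0.544% and 0.588% in WT and 0.459%, 0.540% and 0.406% in KO, and KO 2 again overlapped WT. The mean share was 0.552 ± 0.032% in WT and 0.469 ± 0.067% in KO (SD, n = 3 each).

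Among the small subunit proteins that hold the messenger RNA and the decoding site, Mrps12, Mrps7 and Mrps24 were lower in every KO library than in any WT library. Mrps12, the homologue of a bacterial protein at the decoding centre, lies on mm10 at chr7:28739641-28741820 on the minus strand. It was read at 58.6, 39.9 and 56.4 CPM in WT and at 37.5, 39.1 and 29.7 CPM in KO (51.6 ± 10.2 and 35.4 ± 5.05 CPM, SD, n = 3 each). The groups were separated by less than 1 CPM, between WT 2 and KO 2 (log2 difference -0.54, SE 0.23, edgeR adjusted p = 0.365). Mrps7, a protein of the head of the small subunit, was read at 164, 148 and 203 CPM in WT and 121, 133 and 92.4 CPM in KO, again without overlap (log2 difference -0.57, SE 0.22, adjusted p = 0.324). Mrps24, the counterpart of a bacterial protein at the entry of the messenger channel, was read at 86.1, 90.9 and 123 CPM in WT and 64.5, 78.7 and 54.4 CPM in KO (log2 difference -0.60, SE 0.22, adjusted p = 0.313). In each of the 3 genes, KO 3 was the lowest library and KO 2 the highest of the KO group.

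Mrps5 and Mrps2 belong to the same conserved set, and their groups overlapped. Mrps5, which lies by the messenger entry channel in bacterial ribosomes, was read at 37.6, 32.8 and 33.7 CPM in WT and 33.5, 41.6 and 29.6 CPM in KO (log2 difference 0.0087, SE 0.22, adjusted p = 0.994). Mrps2 was read at 45.7, 36.6 and 32.4 CPM in WT and 42.4, 37.1 and 43.9 CPM in KO (log2 difference 0.10, SE 0.22, adjusted p = 0.895). The sign for Mrps5 turned with DESeq2's size factors (-0.028). Mrps15 was the highest small subunit gene by log2 difference (0.13, SE 0.23, adjusted p = 0.866), with 70.4, 48.1 and 57.0 CPM in WT and 67.0, 73.8 and 51.3 CPM in KO. Mrps9, next below Mrps5 in that order, stood at 72.5, 79.9 and 78.6 CPM in WT and 74.2, 88.0 and 66.5 CPM in KO (log2 difference -0.01, SE 0.20, adjusted p = 0.986), and turned to 0.10 with library size alone.

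Mrps21 had the lowest log2 difference of the small subunit. This short protein, with a counterpart in bacteria, is encoded on mm10 at chr3:95862634-95871519 on the minus strand. It was read at 75.1, 104 and 98.5 CPM in WT and 46.2, 72.0 and 41.9 CPM in KO (92.5 ± 15.3 and 53.3 ± 16.3 CPM, SD, n = 3 each). KO 2 came within about 3 CPM of WT 1, and the other 2 KO libraries lay far lower (log2 difference -0.79, SE 0.25, adjusted p = 0.278). Mrps6 was read at 20.5, 15.1 and 17.8 CPM in WT and 9.34, 14.4 and 10.4 CPM in KO, also without overlap (log2 difference -0.64, SE 0.29, adjusted p = 0.392). Mrps28 overlapped: 36.5, 39.7 and 43.0 CPM in WT and 34.1, 40.6 and 22.3 CPM in KO (log2 difference -0.30, SE 0.25, adjusted p = 0.662).

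Mitochondria have 3 relatives of a single bacterial small subunit protein, Mrps18a, Mrps18b and Mrps18c, and in ribosome structures Mrps18a sits in the large subunit in spite of its symbol. By the unified names only Mrps18c counts as shared with bacteria. Mrps18a was read at 114, 123 and 171 CPM in WT and 80.1, 105 and 76.5 CPM in KO (log2 difference -0.64, SE 0.23, adjusted p = 0.300). Mrps18b was read at 41.2, 38.5 and 42.1 CPM in WT and 33.1, 36.3 and 29.8 CPM in KO (log2 difference -0.29, SE 0.20, adjusted p = 0.573). Mrps18c was read at 66.7, 111 and 103 CPM in WT and 60.4, 93.7 and 51.8 CPM in KO (log2 difference -0.45, SE 0.27, adjusted p = 0.519). The WT and KO libraries did not overlap for Mrps18a and Mrps18b and overlapped for Mrps18c, in which WT 1 lay low. Differences between the 3 relatives were not tested. Per kilobase of transcript, Mrps18a and Mrps18c were at 126 and 127 CPM on average and Mrps18b at 34.2 CPM.

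Mrps30 and Mrps36 carry small subunit symbols that structures do not bear out. Mrps30 lies in the large subunit, and Mrps36 is known as a component of the oxoglutarate dehydrogenase complex. Mrps30 was read at 74.3, 68.0 and 71.4 CPM in WT and 55.9, 71.7 and 57.8 CPM in KO, so that KO 2 lay above WT 2 (log2 difference -0.20, SE 0.20, adjusted p = 0.715). Mrps36 had the lowest CPM of all 78 members, with 8.93, 8.41 and 10.3 CPM in WT and 6.30, 8.12 and 3.93 CPM in KO (log2 difference -0.59, SE 0.37, adjusted p = 0.534). Its groups did not overlap, with KO 2 again closest to WT.

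In the large subunit, the proteins around the stalk, which recruits translation factors, included Mrpl12 with all KO libraries below WT. Mrpl12, the stalk protein, also known to bind mitochondrial RNA polymerase, is encoded on mm10 at chr11:120484613-120489065 on the plus strand. It was read at 175, 194 and 243 CPM in WT and at 127, 173 and 95.1 CPM in KO (204 ± 35.0 and 132 ± 39.3 CPM, SD, n = 3 each). KO 2 lay less than 2 CPM below WT 1, and KO 3 was far below both (log2 difference -0.63, SE 0.25, adjusted p = 0.338). Mrpl10, which anchors Mrpl12, was read at 119, 83.9 and 103 CPM in WT and 88.5, 93.8 and 93.1 CPM in KO, with all KO libraries inside the WT range (log2 difference -0.15, SE 0.20, adjusted p = 0.808). Mrpl11, at the base of the stalk, was read at 70.9, 87.4 and 91.3 CPM in WT and 51.0, 80.2 and 54.5 CPM in KO (log2 difference -0.43, SE 0.23, adjusted p = 0.466). For Mrpl11 only KO 2 overlapped WT.

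Mrpl14 had the lowest log2 difference of all 78 members. Its protein lies on the face of the large subunit that meets the small one and is known to be bound by an assembly factor that keeps the subunits apart. The gene lies on mm10 at chr17:45686322-45698495 on the plus strand. It was read at 35.2, 44.0 and 53.9 CPM in WT and 21.3, 29.6 and 17.2 CPM in KO (44.4 ± 9.37 and 22.7 ± 6.29 CPM, SD, n = 3 each). The highest KO library lay more than 5 CPM below the lowest WT library. The fitted KO level was 0.512 of the WT level (log2 difference -0.97, SE 0.26, edgeR unadjusted p = 0.00335, adjusted p = 0.219). Mrpl58, a hydrolase that frees peptides from stalled ribosomes and is also built into the large subunit, was read at 73.0, 77.2 and 93.5 CPM in WT and 41.0, 64.7 and 40.5 CPM in KO (log2 difference -0.74, SE 0.24, adjusted p = 0.284). Mrpl54 was read at 110, 125 and 160 CPM in WT and 67.9, 103 and 60.0 CPM in KO (log2 difference -0.77, SE 0.25, adjusted p = 0.284). Neither Mrpl58 nor Mrpl54 had any overlap between the groups. Mrpl28 overlapped, since WT 2 was low: 126, 87.4 and 158 CPM in WT and 72.1, 95.8 and 55.8 CPM in KO (log2 difference -0.73, SE 0.27, adjusted p = 0.306).

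Among proteins of the peptidyl transferase region and of the exit tunnel, the groups did not overlap for Mrpl16 and Mrpl23. Mrpl16 was read at 69.1, 87.2 and 72.0 CPM in WT and 57.8, 67.6 and 57.4 CPM in KO, without overlap (log2 difference -0.32, SE 0.20, adjusted p = 0.527). Mrpl27 was read at 45.7, 64.3 and 58.0 CPM in WT and 41.2, 60.2 and 35.7 CPM in KO, with KO 2 above 2 of the WT libraries (log2 difference -0.29, SE 0.25, adjusted p = 0.664). Among the exit tunnel proteins, Mrpl22 (30.2, 42.8 and 47.4 CPM in WT, 28.0, 31.1 and 21.9 CPM in KO) had a log2 difference of -0.57 (SE 0.24, adjusted p = 0.365). For Mrpl22, KO 2 came just above WT 1. Mrpl23 was read at 17.1, 20.5 and 23.7 CPM in WT and 13.1, 16.4 and 10.4 CPM in KO, without overlap (log2 difference -0.62, SE 0.28, adjusted p = 0.390). Mrpl4, also near the tunnel, was read at 134, 97.9 and 169 CPM in WT and 81.5, 111 and 84.3 CPM in KO (log2 difference -0.53, SE 0.24, adjusted p = 0.393). Its groups overlapped through WT 2. Mrpl45, which binds the inner membrane at the tunnel exit, was at 105, 106 and 108 CPM in WT and 99.1, 117 and 93.4 CPM in KO (log2 difference -0.04, SE 0.19, adjusted p = 0.958). It had the tightest WT values of all members, and its KO libraries lay on both sides of them. Its sign turned with library size alone (0.074).

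Mrpl2, Mrpl3, Mrpl32 and Mrpl44, other proteins of the large subunit, had overlapping groups, whereas Mrpl17 did not. Mrpl17, which has a bacterial counterpart, was read at 103, 93.4 and 146 CPM in WT and 71.7, 79.2 and 62.6 CPM in KO (log2 difference -0.68, SE 0.22, adjusted p = 0.284). Mrpl2 was read at 65.9, 45.5 and 59.2 CPM in WT and 51.6, 58.6 and 37.5 CPM in KO (log2 difference -0.21, SE 0.24, adjusted p = 0.771). Mrpl3 was read at 136, 181 and 159 CPM in WT and 105, 148 and 113 CPM in KO (log2 difference -0.39, SE 0.22, adjusted p = 0.486). In both genes KO 2 lay inside the WT range, and Mrpl2 turned to 0.14 with the length and GC trend removed. Mrpl32, which is known to be cut by a mitochondrial protease before it is assembled, was read at 36.8, 69.2 and 56.7 CPM in WT and 45.6, 58.9 and 38.5 CPM in KO (log2 difference -0.19, SE 0.27, adjusted p = 0.821). Without WT 2 its value was 0.030. Mrpl44, a mitochondria-specific protein with an RNase III-like fold, was read at 53.1, 46.9 and 51.4 CPM in WT and 42.3, 47.2 and 44.1 CPM in KO (log2 difference -0.18, SE 0.20, adjusted p = 0.754). In Mrpl44 the libraries of each group lay close together, and KO 2 passed WT 2 by less than 1 CPM.

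Only 7 members had a log2 difference above 0, 3 of the small and 4 of the large subunit, and none was past an unadjusted p of 0.05. Besides Mrps15, Mrps2 and Mrps5 these were Mrpl9, Mrpl43, Mrpl52 and Mrpl21. Mrpl9 was read at 92.2, 83.5 and 84.8 CPM in WT and 93.1, 123 and 84.0 CPM in KO, so KO 2 alone stood out (log2 difference 0.20, SE 0.21, adjusted p = 0.735). Mrpl43 was read at 35.5, 27.6 and 31.5 CPM in WT and 33.4, 37.6 and 32.2 CPM in KO (log2 difference 0.13, SE 0.21, adjusted p = 0.854). Mrpl52 (log2 difference 0.0079, SE 0.23, adjusted p = 0.994) and Mrpl21 (0.0034, SE 0.22, adjusted p = 0.997) lay at 0, and both turned to -0.033 with DESeq2's size factors.

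**Figure D3:**
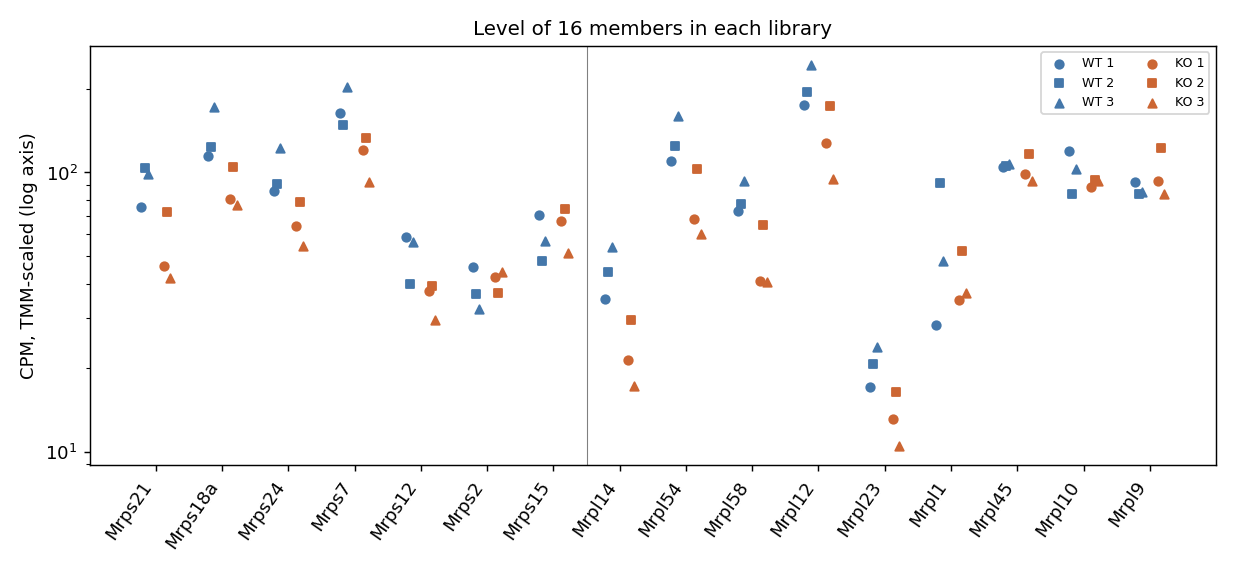
Level of 16 members in each library (vertical axis: TMM-scaled CPM, log axis; blue WT, orange KO; circle, square and triangle are replicates 1, 2 and 3; the line parts small from large subunit). The orange points lie below all blue points for Mrps21, Mrps18a, Mrps24, Mrps7, Mrps12, Mrpl14, Mrpl54, Mrpl58, Mrpl12 and Mrpl23, and the points overlap for the other 6.

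Values also varied within each genotype. The highest WT library exceeded the lowest 1.40-fold at the median over the 78 genes and 3.23-fold at most, for Mrpl1. Within KO these ratios were 1.45 and, for Mrps36, 2.06. Mrpl1, whose bacterial counterpart forms the stalk on the other side of the large subunit, was read at 28.4, 91.5 and 48.3 CPM in WT and 35.0, 52.4 and 37.0 CPM in KO (log2 difference -0.44, SE 0.39, adjusted p = 0.689). WT 2 exceeded the mean of WT 1 and WT 3 by more than 1.5-fold in 9 members, of which Mrpl1 (2.39-fold) and Mrpl47 (1.85-fold) were the highest. Without WT 2 the log2 difference was 0.12 for Mrpl1 and 0.07 for Mrpl47. The excess of WT 2 went with low GC content of the transcript, at a Spearman correlation of -0.65 across the 78 members and -0.76 across 10747 genes with a known length and GC content. These are correlations across genes that share the same libraries, given as a description.

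Levels per kilobase of transcript, averaged over the 6 libraries, spanned 27.8-fold from the lowest member to the highest. The median was 42.4 CPM per kb, at 32.1 for the small and 43.3 for the large subunit. The highest levels were those of Mrpl33 (173 CPM per kb), Mrpl54 (172), Mrpl52 (167) and Mrpl20 (167), and in the small subunit those of Mrps21 (149), Mrps18c (127) and Mrps18a (126). Their ranges over the libraries overlapped widely, so the order among them is not resolved. The lowest were Mrps25 (6.23 CPM per kb), Mrpl47 (7.32), Mrps5 (7.76) and Mrps35 (7.94), followed in the large subunit by Mrpl48 (10.9) and Mrpl19 (12.6). These depend on the transcript that is taken as the principal one: that of Mrps25 is 6073 bases long and that of Mrpl33 is 478. The exons of Mrps25, Mrpl47, Mrpl48 and Mrpl19 also overlap those of counted genes on the other strand, for Mrps25 by 4590 bases with Nr2c2. Whether reads were counted by strand is not known, so these low levels are less certain. Mrps25 was read at 42.8, 41.4 and 41.5 CPM in WT and 32.7, 39.4 and 29.1 CPM in KO, without overlap (log2 difference -0.31, SE 0.21, adjusted p = 0.562).

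**Figure D4:**
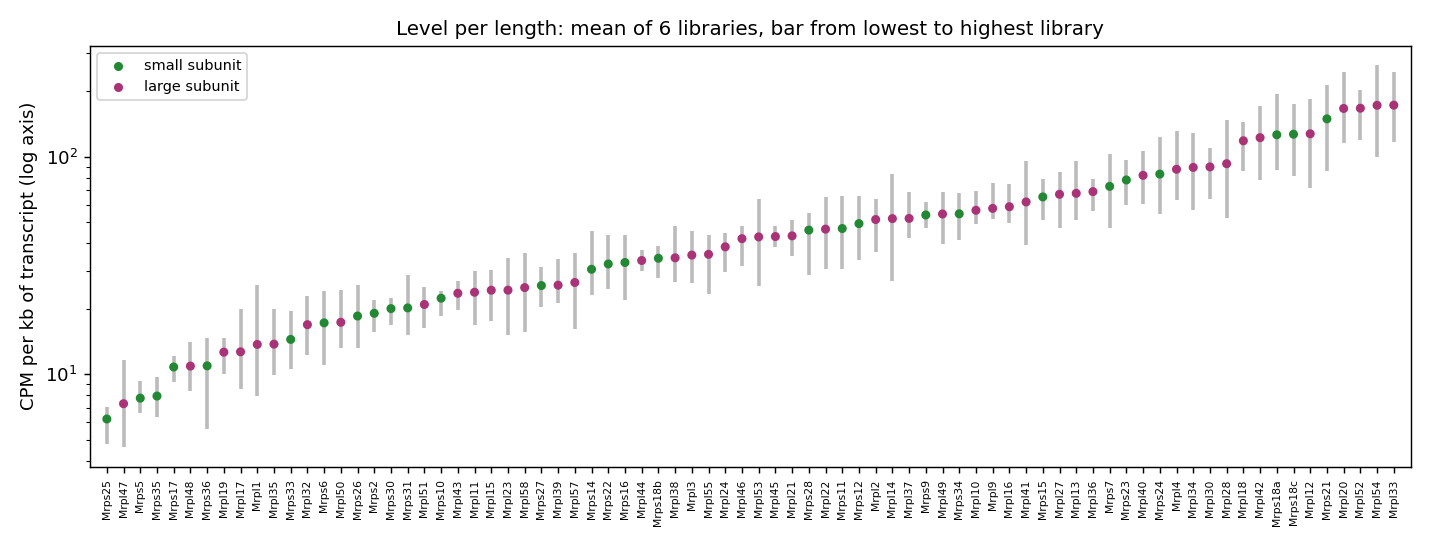
Mean level of each member per kilobase of its principal transcript (vertical axis: CPM per kb, log axis), ordered from low to high, with a bar from the lowest to the highest of the 6 libraries; green small subunit, purple large subunit. Levels run from 6.23 (Mrps25) to 173 (Mrpl33) CPM per kb, and both subunits are found along the whole range.

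Transcript length moved with the difference in all genes, and the members are short. Their median length was 1302 bases, against 2950 for all genes, and 42 of the 78 fell in the shortest eighth of tested genes (70 to 1342 bases). The median log2 difference of all 1344 genes in that eighth was -0.28, and that of the 42 members in it -0.40. In the longest eighth of all genes it was 0.30. Across genes, the Spearman correlation of the log2 difference with length was 0.38 over all genes and 0.28 over the members, and with GC content -0.39 and -0.26. When the trend with length and GC content was removed, the medians were -0.30 for the small subunit, -0.29 for the large subunit and -0.04 for all genes.

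**Figure D5:**
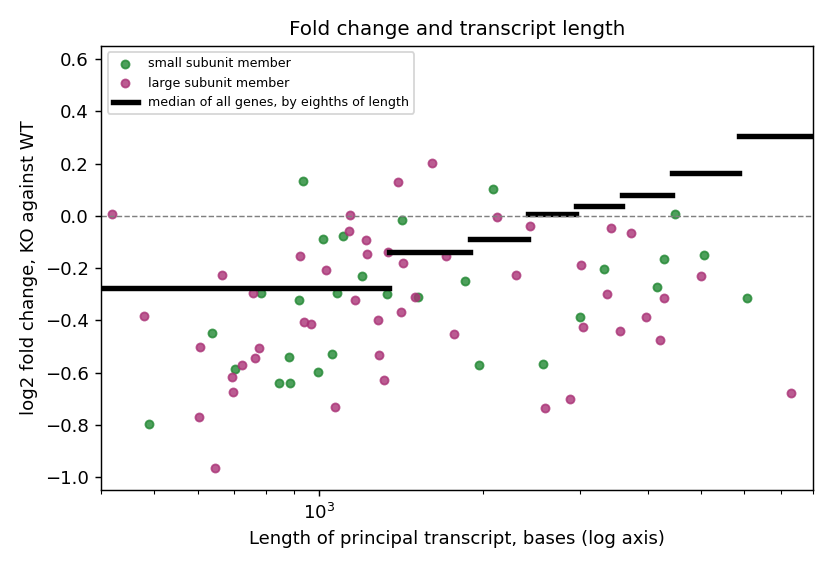
Log2 difference (KO against WT, vertical axis) against the length of the principal transcript (bases, log axis) for small (green) and large (purple) subunit members; black bars are medians of all tested genes in eighths of length, cut at the edges of the axis. The bars climb from -0.28 to 0.30 with length, and the 42 members in the shortest eighth have a median of -0.40.

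Other short genes of the translation and respiratory machinery had similar values. The 75 tested cytosolic ribosomal protein genes had a median log2 difference of -0.42 with 73 below 0, and the groups overlapped for every one of them. The 76 tested genes of respiratory chain and ATP synthase subunits had a median of -0.39 with 73 below 0. For 14 of them the KO libraries all lay below WT (18.4%, against 7.95% of all genes). None of either list was called by edgeR. At an unadjusted p under 0.05, 13 and 25 of them were lower (17.3% and 32.9%, against 5.5% of all genes).

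A further 5 tested genes encode proteins of the mitochondrial ribosome and have no Mrp symbol. Of these, 4 were below 0, and the median was -0.59. Dap3, a GTP-binding protein of the small subunit also known from cell death, was read at 175, 169 and 190 CPM in WT and 106, 142 and 117 CPM in KO, without overlap (log2 difference -0.55, SE 0.20, adjusted p = 0.305). Aurkaip1, a small subunit protein, was read at 123, 131 and 181 CPM in WT and 86.8, 113 and 80.1 CPM in KO, without overlap (log2 difference -0.64, SE 0.23, adjusted p = 0.304). Gadd45gip1, a large subunit protein, was read at 85.1, 86.0 and 129 CPM in WT and 59.1, 80.5 and 51.0 CPM in KO, without overlap (log2 difference -0.65, SE 0.25, adjusted p = 0.313). Chchd1 (log2 difference -0.59, SE 0.30, adjusted p = 0.445) and Ptcd3 (0.10, SE 0.32, adjusted p = 0.938) overlapped, and WT 2 was the highest WT library in both, at 123 and 82.5 CPM. Ptcd3 was at 0.61 without WT 2.

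The factors that work with this ribosome were centred closer to 0 than the members. They also have longer transcripts, with a median of 2563 bases for translation factors and 2138 for assembly factors, against 1302 for the members. All tested genes of 1888 to 2412 bases had a median log2 difference of -0.088, and those of 2413 to 2950 bases one of 0.0056. The part of transcript length in this contrast was not tested. Of 16 tested translation factors, 8 were below 0 and the median was 0.02. At an unadjusted p under 0.05, 2 were lower (12.5%, against 5.5% of all genes) and none was higher. These 2 were Mpv17l2, which is known to help ribosome assembly, and Tufm, the mitochondrial elongation factor that delivers aminoacyl-tRNA. Tufm was read at 107, 87.4 and 120 CPM in WT and 71.4, 82.9 and 68.7 CPM in KO (log2 difference -0.49, SE 0.20, adjusted p = 0.351). Mpv17l2 (log2 difference -0.59, SE 0.23, adjusted p = 0.324) likewise had all KO libraries below WT, and Mrrf, the recycling factor, had a log2 difference of -0.40 with overlapping groups. Assembly and ribosomal RNA modification factors (28 tested) had 22 below 0 and a median of -0.17. Of these, 1 was lower and 1 higher at an unadjusted p under 0.05 (3.57% each, against 5.5% and 7.1% of all genes). The lower was Mtg2, an assembly GTPase (log2 difference -0.55), and the higher Gtpbp10, another (0.97, SE 0.43, adjusted p = 0.387). Tfb1m, a ribosomal RNA methyltransferase, had a log2 difference of -0.43.

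The lists further from the ribosome were centred near or above 0. Their transcripts are also longer than those of the members, with medians of 2651 bases (transcription and RNA processing) and 2390 bases (synthetases). The part of length was not tested here either. Mitochondrial transcription and RNA processing genes (21 tested) had 8 below 0 and a median of 0.12. In that list Hsd17b10, a subunit of mitochondrial RNase P, was read at 61.2, 74.7 and 98.5 CPM in WT and 39.8, 57.4 and 44.2 CPM in KO (log2 difference -0.73, SE 0.24, adjusted p = 0.284). Lrpprc, which stabilises mitochondrial messenger RNAs, was higher in all KO libraries (0.40, SE 0.20, adjusted p = 0.442), as was the scarce Mterf1b (1.21, SE 0.68, adjusted p = 0.486). Mitochondrial tRNA synthetases and their partners (22 tested) had 12 below 0 and a median of -0.05. Nars2, for asparagine, was read at 8.14, 8.01 and 7.48 CPM in WT and 15.5, 11.2 and 13.9 CPM in KO (log2 difference 0.78, SE 0.30, adjusted p = 0.319). Its KO libraries all lay above WT. Cars2 and Mars2, for cysteine and methionine, had log2 differences of -0.45 and 0.61 with overlapping groups. None of the genes in these lists was called by edgeR.

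Genes of the factors linked to promoters of this kind were mostly above 0. Of 13 tested regulators, 3 were below 0 and the median was 0.17. Transcripts of Yy1, Gabpa and Gabpb2 are 6178, 4987 and 8661 bases long, and those of Nrf1 and Myc 1879 and 1365. All genes of 4430 to 5858 bases had a median log2 difference of 0.16, and longer ones 0.30. With the length and GC trend removed Gabpa was at -0.016. Across the alternatives the lowest values were 0.19 for Yy1 and 0.095 for Gabpb2. The part of length was not tested. Yy1 was read at 114, 88.4 and 63.6 CPM in WT and 111, 104 and 133 CPM in KO (log2 difference 0.39, SE 0.24, adjusted p = 0.519). Gabpa was read at 73.8, 122 and 79.8 CPM in WT and 123, 106 and 113 CPM in KO (log2 difference 0.31, SE 0.23, adjusted p = 0.598). Its partner Gabpb2 had all KO libraries above WT, at 190, 198 and 141 CPM in WT and 262, 231 and 234 CPM in KO (0.46, SE 0.21, adjusted p = 0.387). Nrf1 (log2 difference -0.17, SE 0.21, adjusted p = 0.789) and Myc (0.50, SE 0.51, adjusted p = 0.739) overlapped; Myc was highest in the library labelled KO 1 at 93.0 CPM, and without that library its log2 difference was -0.11.

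Many members start close to the start of a gene on the other strand. The 78 genes are spread over 17 chromosomes. For 33 of them (42.3%) a protein-coding gene starts on the other strand within 1000 bases, against 1877 of 10416 tested protein-coding genes (18%). The start may lie on either side of the member's own start. In some pairs, such as Mrpl48 and Rab6a, the neighbour starts inside the member and the genes overlap. Whether a pair shares a promoter was not tested. The 28 tested neighbours that are no member had a median log2 difference of -0.03, with 16 below 0. The members with such a neighbour had a median of -0.29 and those without one -0.38. The neighbours' median was thus close to that of all genes, 0.01.

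Examples of these pairs were chosen after their values were seen. Mrps12 and Sars2, the mitochondrial seryl-tRNA synthetase, start 172 bases apart and had log2 differences of -0.54 and -0.32 (Sars2 SE 0.24, adjusted p = 0.620). Mrpl49 and Fau, a cytosolic ribosomal protein gene, start 59 bases apart and had -0.45 and -0.82 (Fau SE 0.28, adjusted p = 0.299). Mrpl57 and Ska3, a gene of the kinetochore, start 49 bases apart and had -0.70 and -0.34, and in both the KO libraries all lay below WT. A pair of members, Mrps11 and Mrpl46, start 412 bases apart and had -0.53 and -0.06. In this last pair, Mrps11 was read at 56.7, 48.7 and 69.8 CPM in WT and 32.0, 55.9 and 33.3 CPM in KO, and Mrpl46 at 45.7, 50.2 and 49.9 CPM in WT and 49.7, 54.8 and 35.7 CPM in KO. KO 3 was low in both genes and the library labelled KO 1 only in Mrps11. The exons of 33 members overlap those of another gene, and for 21 of them a gene of the table on the other strand is involved. For 3 members, Mrps6, Mrps24 and Mrps34, a gene of the table on the same strand is involved, and counting by strand would not part those. Sources used here do not say whether reads were counted by strand, so the values of all these genes are less certain.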

How the data were processed

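Whole-number read counts per gene were deposited by the authors in a single table of 15861 genes and 6 libraries. The submitters' processing notes name mm10 as the build, and as tools featureCounts 1.5.2, STAR 2.5.2 and CASAVA; for the annotation and the strand setting, nothing is given in the sources used here. The counts are not normalized. Groups come from the labelled genotypes.

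Genes were kept by filterByExpr (10926) and tested with edgeR 4.0.16 (R 4.3.3; TMM, robust quasi-likelihood, two-sided, Benjamini-Hochberg over all genes tested, threshold 0.05). Standard errors are the absolute fitted log2 difference divided by the square root of F. With 3 mice per group, p-values set the group difference against the spread between mice, which is estimated in part from all genes. The common biological coefficient of variation was 30.8%. The code was tested on simulated data. Log2 CPM used a prior count of 2. Counts per member ran from 33 to 2456 per library. Lengths and GC content are those of the principal GENCODE vM21 transcript, known for 98.4% of tested genes.

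The members and lists were chosen with earlier results of these data known. Named were members with a known place in the ribosome, the 4 lowest and 4 highest differences and the 3 highest and 3 lowest levels per length in each subunit, the 3 smallest p-values in each other list, Nrf1, Gabpa, Yy1, Myc, Kdm1a and the mitoribosome genes without an Mrp symbol; Mrpl1, Mrpl13, Mrpl17, Mrpl18, Mrpl20, Mrpl42, Mrpl46, Mrpl49, Mrpl57, Mrps11, Fau, Sars2 and Ska3 were named after their values were seen. Alternatives changed the scaling, filter, tool (DESeq2 1.42.0, limma 3.58.1), depth, replicate block or library set, or removed the trend with length and GC content. Some further promoter stretches are not reported here.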

Additional observations from a re-analysis of the deposited data

How the results depend on the processing

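No member was called under any of the 17 alternatives, the smallest adjusted p being 0.0682 with DESeq2. The median log2 difference ranged from -0.40 to -0.18 for the small and from -0.51 to -0.20 for the large subunit. Members lower at an unadjusted p under 0.05 (21) numbered 10 with library size alone (12.8%, against 2.91% of all genes) and 33 with sample quality weights (42.3% against 13.1%). With a library left out they numbered 4 to 30, against 1.48% to 8.75% of all genes. Members of which all KO libraries lay below all WT libraries numbered 20 without the library labelled KO 1 (25.6%, against 10.8% of all genes). This alternative was chosen after seeing the data, as was the recount at an unadjusted p. Members had a median of 221 to 351 counts in the WT libraries and 633.5 to 910 in the KO libraries.

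Whether the replicate numbers pair the samples is not settled. Same-numbered libraries deviated together at correlations of 0.34, -0.05 and 0.44 across genes, and unlike-numbered ones at -0.45 to 0.20. WT 1 and WT 3 correlated best with the KO library of their own number, whereas WT 2 correlated best with KO 3 (0.14). With the number as a replicate block, no member was called, and 15 were lower at an unadjusted p under 0.05 (19.2%, against 5.60% of all genes). The medians were then -0.31 and -0.32, and 21 genes of the table were called in place of 9. Calls over the whole table (9) were 122 with DESeq2, 93 without a filter, 37 with the length and GC trend removed, 18 with library size alone and with quality weights, 2 with limma-voom and 1 to 24 with a library left out.

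Some small log2 differences changed sign. Mrps5, Mrpl21 and Mrpl52 were at -0.028, -0.033 and -0.033 with DESeq2's size factors, at -0.028, -0.034 and -0.033 with DESeq2, at -0.0045, -0.019 and -0.019 with limma-voom, and at -0.046, -0.0039 and -0.19 with quality weights. They were at -0.0012, -0.0057 and -0.020 with the replicate block, and at -0.069, -0.025 and -0.011 with libraries thinned to the smallest total, where Mrpl45 was at 0.10. Mrps9 was at 0.0058 with upper-quartile scaling. With library size alone Mrpl45, Mrps9, Mrpl46 and Mrpl18 were at 0.074, 0.10, 0.058 and 0.021. With the length and GC trend removed Mrps5, Mrpl2, Mrps9, Mrpl46, Ptcd3, Mars2, Gabpa and Sars2 were at -0.25, 0.14, 0.0087, 0.12, -0.031, -3.7e-05, -0.016 and 0.0058. The cause was not tested. With a library left out, the log2 difference ran from -0.13 to 0.12 for Mrpl21, -0.13 to 0.61 for Ptcd3, -0.13 to 0.097 for Mrps5, -0.42 to 0.030 for Mrpl32, -0.13 to 0.057 for Mrps9, -0.14 to 0.18 for Mrpl52, -0.59 to 0.069 for Mrpl47, -0.76 to 0.12 for Mrpl1, -0.35 to 0.13 for Mrpl13, -0.51 to 0.0066 for Mrpl42, -0.24 to 0.062 for Mrpl18, -0.0031 to 0.24 for Mrps2, -0.11 to 0.95 for Myc, -0.13 to 0.0082 for Mrpl45 and -0.18 to 0.086 for Mrpl46.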
